A study of Homo sapiens and Mus musculus with 13 samples.

Results

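The semaphorins, plexins and neuropilins were examined in mouse haematopoietic progenitors immortalized by HOXB8, with or without a knock-in of NPM1c, the mutant nucleophosmin of acute myeloid leukaemia that accumulates in the cytoplasm. Members were taken by gene symbol: every gene named Sema3 to Sema7, Plxn or Nrp in the 5 mouse libraries, which gave 31 of 37991 genes (20 semaphorins, 9 plexins and 2 neuropilins). The knock-in group held 3 libraries, each from a single-cell clone in which CRISPR/Cas9 had placed NPM1c fused to GFP, and these are called here by the numbers in the sample titles, 12, 18 and 4. The parental group held 2 libraries of the wild-type HOXB8 line. All cells of both groups were immortalized by HOXB8 and grown in RPMI-1640 with 1% of a medium conditioned by CHO cells making stem cell factor and with 1 uM beta-estradiol, without drug treatment. Because each clone grew from a single cell and no unedited clone was among these libraries, an effect of NPM1c and one of cloning cannot be told apart.

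Semaphorins are secreted or membrane-bound guidance proteins. Plexins are their main receptors: the part inside the cell switches off small GTPases of the Ras and Rap type and acts on Rac, which loosens adhesion and remodels actin. Neuropilins have only a short tail inside the cell and serve as co-receptors, joining class 3 semaphorins to plexins and, separately, VEGF to its receptor kinases. In blood and immune cells, members such as Sema4A and Sema4D are known for acting between leukocytes, and plexins for their part in migration and adhesion.

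The files hold normalized read counts, meaning reads per gene divided by a factor for each library. They corresponded to 7358340 to 12235174 reads in the clones, 9728260 in parental replicate 1 and 99557475 in parental replicate 2, so low values are far better measured in the last. The members took 0.0603% to 0.0677% of reads in the clones and 0.0709% to 0.0727% in the parental libraries. Npm1, the targeted gene, had 14530 ± 535 (SD, n = 3) in the clones and 25705 ± 13.7 (SD, n = 2) in the parental libraries, and it does not separate mutant from normal transcripts. Of 11 progenitor markers, 4 were higher in the clones (Gata2, Cd48, Myb and Ptprc) and 2 were lower (Elane and Flt3). Kit (5263 to 8571) and Cd34 (14739 to 17793) were abundant in every library and did not pass. Gata2, which was higher, had 4058 to 5293 in the clones and 1674 and 1868 in the parental libraries. Elane, which was lower, had 13.5 to 44.4 in the clones and 93.4 to 188 in the parental libraries. Its clone values rest on 11, 28 and 8 reads in clones 12, 18 and 4, and its parental libraries were 2.01-fold apart. Of 13 mast cell and basophil markers, 9 were tested and 7 were higher in the clones, with a summed level of 8057 to 10282 in the clones and 1362 to 3566 in the parental libraries. The mast cell protease Mcpt4 stayed at or below 1.59 in all libraries, and Fcer1a had no parental read. Of 9 rows with B cell markers, 6 were tested and 3 were lower in the clones, with summed levels of 2338 to 3083 against 5039 to 5269. Of 10 endothelial markers, Cdh5, Tek, Sox17 and Emcn had no read in any library, while their sum, mostly Pecam1, was 7918 to 9624 in the clones and 3862 to 4080 in the parental libraries. Of 10 erythroid and megakaryocyte markers 5 were tested and 2 were higher, with sums of 2070 to 3188 and 384 to 435, most of it Itga2b. Markers of neutrophils, of T and NK cells, of stroma and of neural cells each summed to at most 241.3 in any library. Monocyte and dendritic cell lists summed to 4757 to 8879 and 3974 to 4453 in the clones and to 8306 to 8881 and 5511 to 5570 in the parental libraries, mostly Ccr2 and Flt3. Of the 5 monocyte markers tested 1 was higher in the clones (Emr1), and of the 3 dendritic cell markers tested 2 were higher (Itgax and H2-Ab1) and 1 was lower. Markers were tested where their mean over the 5 libraries was at least 10. Il5ra, Il1rl1, Tpsb2, Hbb-b1 and Itgax reached it only through the clones, and Cd79b only through the parental libraries. Under that filter these markers had to differ, and their calls are a description. Over all 13132 genes tested, 7.51% were higher and 8.49% lower in the clones. The part of these marker shifts in the results on the semaphorin system was not tested.

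The comparison of clones with the parental line asks what differs between them, whether through the knock-in or through cloning. Among the semaphorins and their receptors, the neuropilin Nrp2 and the semaphorin Sema4a were lower in the clones, and the plexin Plxnc1 and the semaphorin Sema3d were higher. Of the 31 genes, 15 reached a mean of 10 over the 5 libraries and were tested, and 16 did not. By limma on log2(value + 1), 4 of the 15 tested genes passed at an adjusted p under 0.05, that is 26.7%, 2 in each direction. Over all 13132 genes tested, 16% passed, 7.51% higher and 8.49% lower in the clones. Of the 4 genes, Nrp2 and Sema3d reached the minimum only through the group in which they are high. Under that filter they had to differ, and their p-values are a description. The 15 genes had a median log2 fold change of 0.03, and all genes tested had one of 0.01. Clones and parental libraries did not overlap in 8 of the 15 genes, 5 with all clones above and 3 with all clones below. Of all genes tested, 50.2% were apart in this way, 24.5% with all clones above and 25.8% with all clones below. As the libraries are bulk samples, fewer cells of a type and less RNA per cell cannot be told apart. Whether the parental pair were separate cultures is not stated in the labels, and p-values then measure only the spread between libraries, which may be technical.

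**Figure D1:**
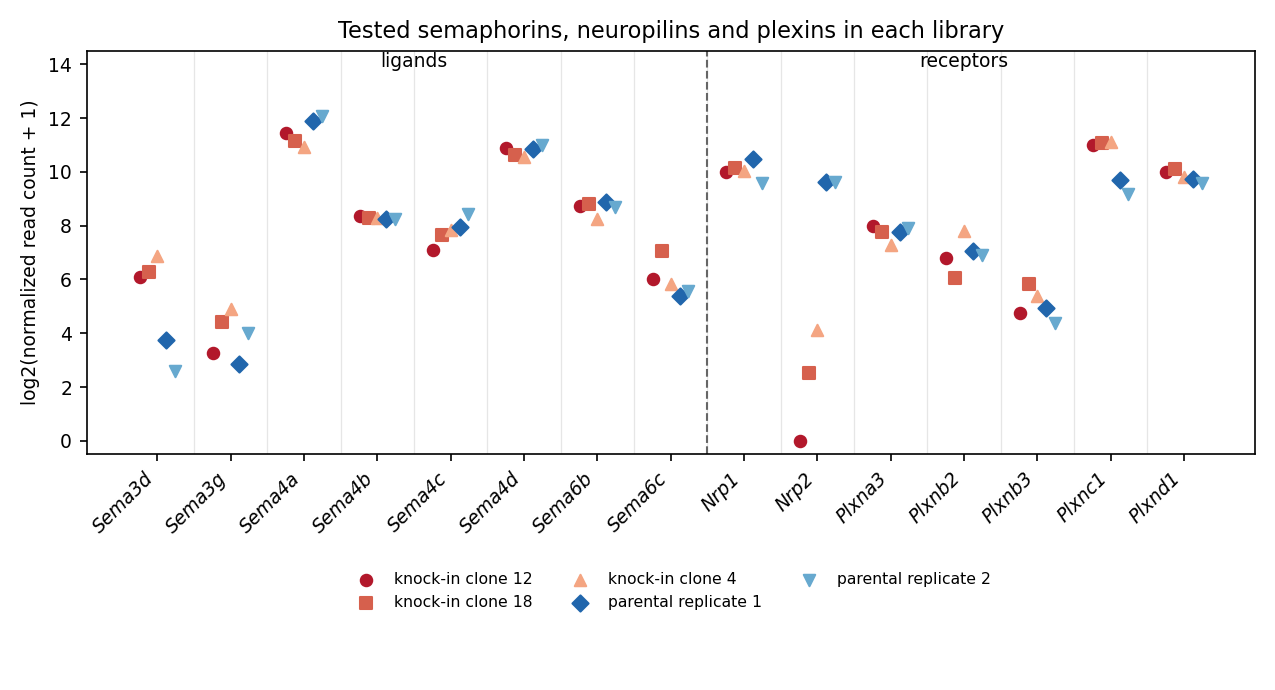
Each point is 1 library: the vertical axis gives log2(normalized read count + 1) for the 15 tested genes along the horizontal axis, semaphorin ligands on the left and receptors on the right of the dashed line. Warm colours are the 3 knock-in clones and blue colours the 2 parental libraries. Nrp2 has the widest gap between the groups, Plxnc1 and Sema3d lie higher in all 3 clones, and Sema4b lies at nearly the same level in all 5 libraries. Heights of different genes are not comparable, since the values are not divided by gene length.

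The class 3 semaphorins are secreted ligands that mostly need a neuropilin to reach a plexin. Sema3d (ENSMUSG00000040254), which acts in guiding axons and endothelial cells, was at a normalized read count of 67.7, 76.1 and 117 in clones 12, 18 and 4 and at 12.4 and 5.04 in parental replicates 1 and 2. Every clone was thus above both parental libraries. Its log2 fold change was 3.25 (SE 0.424, adjusted p = 0.00297, limma), and the ratio of the group means was 9.95. It passed under all 13 alternatives (limma, edgeR or DESeq2), at adjusted p between 1.81e-08 and 0.0192. These values rest on 55, 48 and 57 reads in the clones and on 8 and 33 in the parental libraries, which differed from each other 2.47-fold. Sema3d reached the minimum for testing through the clones alone, its parental mean being 8.73 ± 5.23 (SD, n = 2). Under that filter its groups had to differ, and its p-values are a description.

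Sema3g, a class 3 semaphorin known from vascular cells, was at 8.62, 20.6 and 28.7 in clones 12, 18 and 4, and parental replicates 1 and 2 had 6.21 and 15.3. The groups overlapped, and the log2 fold change of 0.76 did not pass (95% interval -0.71 to 2.24, adjusted p = 0.447, limma). The other class 3 genes stayed below the minimum. Sema3b, described as a tumour suppressor, had 14 reads in clone 12 (a value of 17.2), none in clones 18 and 4, none in parental replicate 1 and 21 reads in parental replicate 2 (3.21). Sema3e, the class 3 ligand that binds plexin D1 without a neuropilin, had 4 reads in clone 12 and none elsewhere. Sema3a, the prototype repellent of axons, had 1 read in clone 18 and 17 in parental replicate 2, and Sema3f, the classical ligand of Nrp2, had 5 reads in parental replicate 2 alone. Sema3c had no read in any library.

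The class 4 semaphorins are membrane proteins and include those best known in the immune system. Sema4a (ENSMUSG00000028064), a costimulatory molecule of dendritic cells and T cells, was at 2767, 2286 and 1928 in clones 12, 18 and 4, and parental replicates 1 and 2 had 3809.7 and 4314. All clones were below both parental libraries, with means of 2327 ± 421 (SD, n = 3) and 4062 ± 357 (SD, n = 2). The log2 fold change was -0.82 (SE 0.154, adjusted p = 0.0137, limma), a level 1.76-fold lower. Without parental replicate 2 it was -0.73 and did not pass (adjusted p = 0.0779, limma). Over its 13 alternatives the adjusted p (limma, edgeR or DESeq2) lay between 7.11e-05 and 0.0779.

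Sema4c, a ligand of plexin B2, was also below both parental libraries in every clone, at 135, 199.7 and 229.8 against 248.6 and 341.5. Its log2 fold change of -0.66 had an unadjusted p of 0.0360 but did not pass after adjustment over all genes (adjusted p = 0.131, limma). Sema4d (CD100), which acts through plexin B1, plexin B2 and CD72, was at 1906, 1571 and 1489 in the clones, against 1852 and 2028 in parental replicates 1 and 2. Its groups overlapped, and its log2 fold change of -0.24 did not pass (95% interval -0.53 to 0.06, adjusted p = 0.253, limma).

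Sema4b ran from 299.9 to 329.9 over all 5 libraries. Its log2 fold change was 0.06 (95% interval -0.26 to 0.39, adjusted p = 0.796, limma). Although its 3 clones lay above both parental libraries, the gap was small: the lowest clone was at 307.5 and the higher parental library at 305.8. Sema4g had at most 1 read in any library, and Sema4f had none.

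The class 6 semaphorins are membrane proteins that bind plexins of the A type without a neuropilin. Sema6c was at 64.0, 133 and 55.4 in clones 12, 18 and 4, and parental replicates 1 and 2 had 40.4 and 46.1, so all clones were higher. Clone 18 was 2.40 times clone 4, and the log2 fold change of 0.84 did not pass (95% interval -0.05 to 1.73, adjusted p = 0.184, limma). Sema6b was at 424.7, 440.7 and 299.5 in the clones, against 466.1 and 410.8 in parental replicates 1 and 2. The groups overlapped, with a log2 fold change of -0.19 (95% interval -0.65 to 0.27, adjusted p = 0.543, limma). Sema6a and Sema6d each had 1 read, in clone 18 and clone 12 respectively.

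Classes 5 and 7 were not detected at a testable level. Sema5a and Sema5b, which carry thrombospondin repeats, had no read in any library. Sema7a, the lipid-anchored ligand of plexin C1, had a single read, in parental replicate 2. In one library, 3 reads correspond to a normalized count of 0.458 (parental replicate 2) to 6.15 (clone 4), which is the level that a count of 0 allows, for counting error only.

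**Figure D2:**
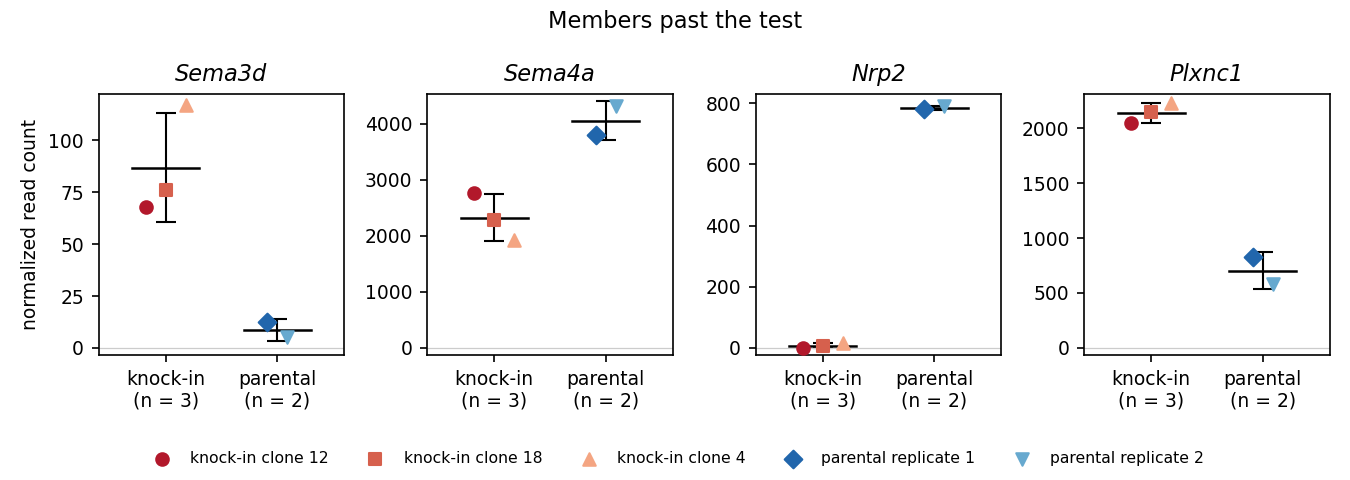
Normalized read counts (vertical axis, linear, a separate scale for each gene) of the 4 genes that passed the test, with 1 point per library, the group mean as a horizontal line and the SD as an error bar. The clones lie above the parental libraries for Sema3d and Plxnc1 and below them for Sema4a and Nrp2, where clones reach at most 16.4 and the parental libraries lie at 779.96 and 790.4.

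Among the receptors, the neuropilin Nrp2 fell and Nrp1 did not pass the test. The difference between their changes was not tested. Nrp2 (ENSMUSG00000025969), the co-receptor for Sema3F and for VEGF-C, was at 0, 4.76 and 16.4 in clones 12, 18 and 4, and parental replicates 1 and 2 had 779.96 and 790.4. The parental libraries were nearly equal, while the clones ran from no read in clone 12 through 3 reads in clone 18 to 8 in clone 4. All clones were far below the parental libraries, with means of 7.06 ± 8.44 (SD, n = 3) and 785 ± 7.35 (SD, n = 2), a ratio of 111. The log2 fold change was -7.40 (SE 1.21, 95% interval -10.52 to -4.29, adjusted p = 0.0183, limma), and it ranked 6 among the falls of the 13132 genes tested. Because the clones differ strongly on the log scale, the size depends on which of them enter: it was -6.30 without clone 12 and -8.36 without clone 4, and without clone 18 the value of -7.56 did not pass (adjusted p = 0.0676, limma). With a pseudocount of 5 it was -6.28. Over its 13 alternatives the adjusted p (limma, edgeR or DESeq2) ran from 0.000106 to 0.0676. Nrp2 reached the minimum for testing through the parental libraries alone. Under that filter it had to be lower in the clones, and its p-values and rank are a description.

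Nrp1 (ENSMUSG00000025810), the co-receptor for Sema3A and VEGF-A, was at 1008, 1139.7 and 1040.1 in the clones, against 1414 and 768 in parental replicates 1 and 2. The clones lay within 1.13-fold of each other and between the parental libraries, which were 1.84-fold apart. The log2 fold change was 0.03 (95% interval -0.56 to 0.61, adjusted p = 0.955, limma). Its sign turned with the library left out, from 0.47 without parental replicate 1 to -0.41 without parental replicate 2, and neither value passed. The 95% interval of Nrp1 holds changes in both directions. It was not set against the change of Nrp2, whose size depends on the pseudocount and on the clones used.

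The plexin of the C type moved upward. Plxnc1 (ENSMUSG00000074785), the receptor for Sema7A that is known for its part in leukocyte adhesion and migration, was at 2048, 2146 and 2229.97 in clones 12, 18 and 4, and parental replicates 1 and 2 had 825 and 583. The clones were within 1.09-fold of each other, and each was above both parental libraries. Means were 2142 ± 90.8 (SD, n = 3) and 704 ± 171 (SD, n = 2), and limma gave a 3.08-fold rise (log2 fold change 1.62, SE 0.152, adjusted p = 0.000913). It passed under all 13 alternatives, with adjusted p from 1.95e-18 to 0.00877 (the lowest with DESeq2).

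The other tested plexins did not pass. Plxnd1, the receptor for Sema3E, was at 1018, 1087 and 894 in the clones, against 861 and 777 in parental replicates 1 and 2. All clones were higher, but the log2 fold change was 0.29 (95% interval -0.01 to 0.58, adjusted p = 0.178, limma). Plxnb2, a receptor for class 4 semaphorins, was at 111, 65.0 and 219.5 in the clones, a 3.38-fold range, and at 132 and 121 in the parental libraries, which lay within it. Its log2 fold change was -0.11 (95% interval -1.29 to 1.06, adjusted p = 0.898, limma).

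Plxnb3, a receptor for Sema5A, was at 25.9, 55.5 and 41.0 in the clones, against 29.5 and 19.8 in parental replicates 1 and 2. The groups overlapped at clone 12, and its log2 fold change was 0.66 (95% interval -0.25 to 1.58, adjusted p = 0.290, limma). Plxna3, the A-type plexin that acts with Nrp2 in the response to Sema3F, was at 252, 214 and 156 in the clones, against 216 and 241 in parental replicates 1 and 2. These groups overlapped too, with a log2 fold change of -0.17 (95% interval -0.68 to 0.35, adjusted p = 0.650, limma).

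The remaining plexins fell below the minimum. Plxna1, a receptor for class 3 and class 6 semaphorins, came closest with a mean of 8.70, where the lowest tested gene, Sema3g, had 15.9. It had 1, 5 and 16 reads in clones 12, 18 and 4 (values of 1.23, 7.93 and 32.8), none in parental replicate 1 and 10 in parental replicate 2 (1.53). The clone with the most Plxna1 reads, clone 4, also held the only clone reads of Plxna2, 3 in number, and the highest clone level of Nrp2. Plxna4 had 1 read in clone 12 and 1 in parental replicate 2, and Plxnb1 had none in any library. In all, 13 of the 16 untested genes stayed below 5 in every library and 5 of them had no read at all.

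**Figure D3:**
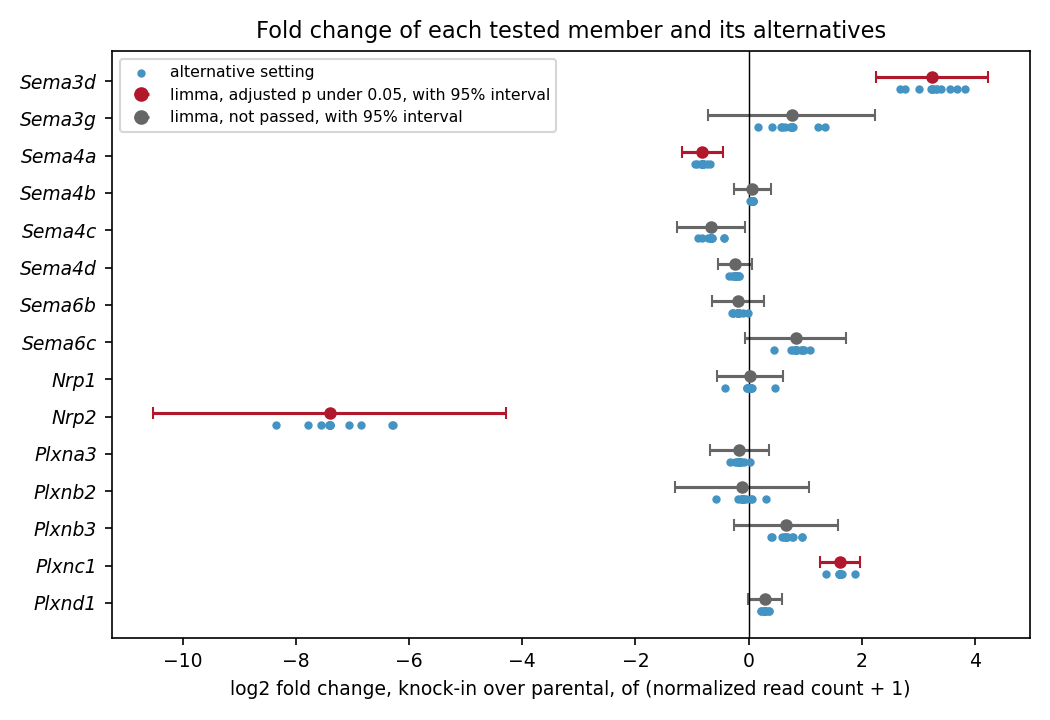
The horizontal axis gives the log2 fold change of knock-in over parental for each of the 15 tested genes on the vertical axis. Large points with bars are limma values of (normalized read count + 1) with their 95% intervals, red where the adjusted p is under 0.05, and small blue points are the same gene under other settings, among them edgeR and DESeq2, whose fold changes are fitted to reads. All blue points of Sema3d, Sema4a, Nrp2 and Plxnc1 keep the sign of the red point, and those of Nrp1, Plxna3 and Plxnb2 fall on both sides of 0.

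The spread within the groups was uneven across these genes. The parental libraries were more than 1.5-fold apart in 3 of the 15 tested genes, Nrp1, Sema3d and Sema3g, the first 2 being lower and the last higher in parental replicate 2. The clones were more than 2-fold apart, or had a clone at 0, in 5 of the 15: Nrp2, Plxnb2, Plxnb3, Sema3g and Sema6c. Plxnc1, Sema4b and Nrp1 were the genes in which the clones lay closest, within 1.07-fold to 1.13-fold.

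The wider pathway was read from a list of 75 symbols of effectors, GTPases, co-receptors, alternative receptors, VEGF ligands and processing proteases. Of these, 73 symbols were found, on 75 rows, since Abl1 and Mical3 have 2 identifiers each. Of 54 rows tested, 9 were higher, 10 lower and 35 did not pass. This is 35.2% called, beside the 16% over all genes, and the median log2 fold change was 0.18. Of the 19 called rows, 5 reached the minimum for testing only through the group in which they are high (Chl1, Farp1, Flt1 and Mmp14 through the parental libraries, Enah through the clones), so that they had to differ, and their p-values are a description. Of the 19 calls, 6 held when each library was left out in turn (Adam17, Enah, Mmp14, Rock2, Tiam1 and Vegfa) and 13 were lost at least once.

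Vegfa and Flt1, of the VEGF system that shares the neuropilins with the semaphorins, were lower in the clones. Vegfa, the ligand, was at 1045, 948 and 732 in clones 12, 18 and 4, and parental replicates 1 and 2 had 2736 and 2680.2. All clones were below both parental libraries, and the log2 fold change was -1.59 (SE 0.155, adjusted p = 0.000928, limma). Flt1, a VEGF receptor kinase, had no read in clones 12 and 18 and was at 12.3 in clone 4, against 227 and 272 in the parental libraries. Its log2 fold change of -6.72 passed (adjusted p = 0.0158, limma), and it did not pass without clone 12, clone 18 or parental replicate 2 (adjusted p = 0.0727, 0.0666 and 0.0621) or with DESeq2 (0.0708). The other VEGF genes gave no call. Vegfb did not pass (adjusted p = 0.483, limma), the receptor Kdr had 1 read in all libraries together, and Pgf stayed at or below 4.10.

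Met, Cd72, Itgb1 and Chl1, which act as alternative receptors or co-receptors of semaphorins, were lower in the clones. Met, the growth factor receptor that pairs with B-type plexins, was at 869, 818 and 1188 in the clones, against 1773 and 1854 in parental replicates 1 and 2 (log2 fold change -0.94, adjusted p = 0.0105, limma, and 0.0584 without parental replicate 2). Cd72, a receptor of Sema4D, was at 3792, 3548 and 3742 against 4785 and 5175 (adjusted p = 0.0144, limma), and did not pass without clone 12 (0.0550) or parental replicate 2 (0.0938). Itgb1, the integrin chain through which Sema7A can act, was 1.26-fold lower (adjusted p = 0.0313, limma), a call kept among the single-library omissions only without clone 4 (0.0783 to 0.134 otherwise). Chl1, an adhesion molecule that associates with Nrp1, went from 62.1 and 77.9 to between 1.59 and 8.62 (adjusted p = 0.00741, limma, and 0.0793 without parental replicate 2). Tyrobp, the signalling adaptor used by plexin A1 with Trem2, was at 331, 404 and 447 in the clones, against 317 and 105 in parental replicates 1 and 2. Its log2 fold change of 1.10 did not pass (adjusted p = 0.176, limma), except without parental replicate 1 (0.00339). Trem2 was at 30.8 in clone 4 and had no read in the other clones. Nrcam and L1cam of the same list had log2 fold changes of 0.37 and 1.78 and did not pass (adjusted p = 0.177 and 0.396, limma). Itga1, the integrin chain listed beside Itgb1, had 3 reads in parental replicate 2 (a value of 0.458) and none in the other libraries.

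Among the called rows were regulators of Rac and actin, while Rac1, Cdc42, Limk1, Limk2, Cfl1, Rock1 and Pak2 of the same list did not pass (adjusted p from 0.337 to 0.668, limma). Tiam1 and Trio, which activate Rac, were higher: Tiam1 was at 5529 to 6643 in the clones and 3298.5 and 3305 in the parental libraries (adjusted p = 0.00155, limma), and Trio at 468 to 511 against 289 in both (adjusted p = 0.00981, limma, and 0.0506 without clone 12). Pak1, a kinase activated by Rac and Cdc42, was at 347 to 493 in the clones, against 205 and 241 in parental replicates 1 and 2 (adjusted p = 0.0175, limma, and 0.0640 without parental replicate 1). Ssh1, the phosphatase that activates cofilin, was at 185 to 279 against 104 and 117 (adjusted p = 0.0207, limma), and did not pass without clone 12 or either parental library (0.0627 to 0.0747). Enah, an actin regulator of the Ena/VASP family, had 24.6 to 41.2 in the clones, no read in parental replicate 1 and 1.22 in parental replicate 2 (adjusted p = 0.00347, limma).

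Rock2, a kinase that promotes actomyosin contraction, was at 729, 835 and 749 in clones 12, 18 and 4, and parental replicates 1 and 2 had 1703 and 1827, so that every clone was lower (log2 fold change -1.20, adjusted p = 0.000928, limma). Sh3bp1, which switches Rac off and binds plexin D1, was at 2435 to 2573 in the clones, against 3474 and 3897 in parental replicates 1 and 2 (adjusted p = 0.00741, limma, and 0.0525 without parental replicate 2). Farp2 of the same list was at 33.2 to 49.2 in the clones, against 12.4 and 21.1 in parental replicates 1 and 2. All clones were higher, but its log2 fold change of 1.18 did not pass (adjusted p = 0.0714, limma). Farp1, an exchange factor that acts with A-type plexins, had 1 read in the clones and 372 in the parental libraries. With reads pooled within each group and corrected for the library factors, the ratio was 99.8 (95% counting interval 17.8 to 3954). This is not a ratio of group means. Limma called Farp1 lower in the clones (adjusted p = 0.00476). The limma call was lost without parental replicate 1 (0.0812) or 2 (0.0800).

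Of the proteases on the list that process semaphorins, Adam10 did not pass (log2 fold change -0.01, adjusted p = 0.955, limma). Mmp14, a membrane protease that can release Sema4D, had 1 read in the clones, in clone 4, and 1926 in the parental libraries (adjusted p = 0.000562, limma). Its ratio of pooled reads, formed as for Farp1, was 517 (95% counting interval 92.7 to 20426). Adam17, which sheds many membrane proteins, was at 11602, 12020.0 and 11661 in clones 12, 18 and 4, and parental replicates 1 and 2 had 7279 and 7496 (log2 fold change 0.67, adjusted p = 0.00118, limma). The other 3 calls, Furin, which cleaves class 3 semaphorins, Gipc1, which binds the tail of neuropilins, and Mical1, an enzyme that oxidizes actin downstream of plexins, were named after their values were seen. All 3 were higher (log2 fold changes 0.42, 0.77 and 0.34, adjusted p = 0.0345, 0.0275 and 0.0412, limma), and none passed without clone 12, clone 18 or parental replicate 2 (adjusted p from 0.0648 to 0.140), nor did Furin and Mical1 without parental replicate 1 (0.121 and 0.182).

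**Figure D4:**
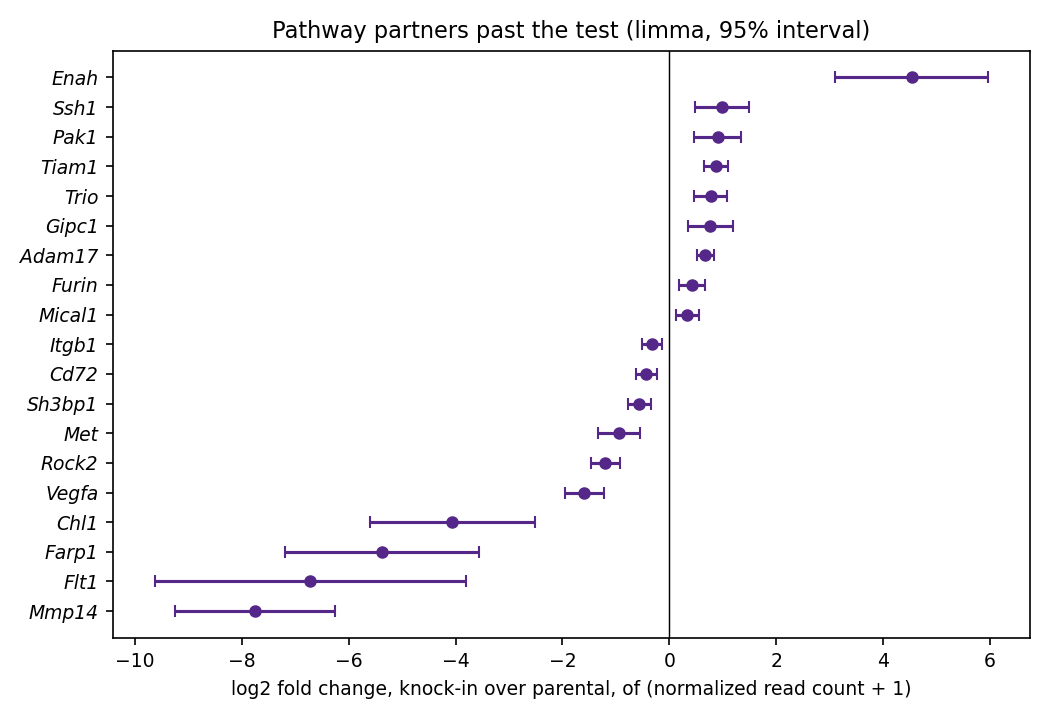
Log2 fold change of knock-in over parental (horizontal axis, of normalized read count + 1) for the 19 pathway rows that passed the test, ordered by size, with limma's 95% intervals. The largest falls are Mmp14, Flt1, Farp1 and Chl1, each near 0 in at least 1 clone, and the largest rise is Enah, which had no read in parental replicate 1.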

How the data were processed

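RNA came from RNeasy micro columns, and the mouse libraries from NEBNext Ultra II, per the labels' protocols. Builds mm9 and hg19 and the tools STAR 2.6.1, RSEM and DESeq2 appear in the submitters' processing notes with no role for each. Which annotation was used, and whether reads were assigned by strand, is not given in the sources used here, so antisense transcripts cannot be separated. The authors deposited, per Ensembl gene, a signal value: read counts divided by a size factor per library, as the file headers, the labels and the values show. Every value (100%, tolerance 0.01) was a whole multiple of its library's smallest, so whole reads were recovered.

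Groups came from sample titles. The clone numbers in the files' headers differ from those in the titles, always within the knock-in group. All 37991 genes were read, 823 of them without a symbol, and the 13132 with a mean of at least 10 were fitted with limma 3.58.1 (R 4.3.3, trend and robust moderation) on log2(value + 1), so fold changes of low genes depend on the pseudocount. Adjusted p is by Benjamini-Hochberg over all 13132. Alternatives were pseudocounts of 0.5 and 5, no filter, a minimum of 50, TMM and library-total scaling, edgeR 4.0.16 and DESeq2 1.42.0 on recovered reads (2206 and 2681 genes called, against 2101), and leaving out each library. The fits were also run on simulated data, with the same spread set for every gene and no added difference between clones. That setting differs from these clones, so it does not show how well the fits perform on them.

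Every tested member was named, as were, from the pathway list, up to 6 called genes with the smallest p in each direction and the direct ligands and receptors. Members, lists and tests were chosen with earlier results of these data known. Counting intervals (95%, exact) and floors of 3 reads cover counting error only. Human libraries, sequences and mouse coordinates were not used here.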

Additional observations from a re-analysis of the deposited data

How the results depend on the processing

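The same 4 of the 15 tested members (Sema3d, Sema4a, Nrp2 and Plxnc1) were called under both pseudocounts, both filters, both scalings, edgeR and DESeq2. Leaving out each library in turn gave 3 or 4 called members: Nrp2 was lost without clone 18 (adjusted p = 0.0676, limma) and Sema4a without parental replicate 2 (adjusted p = 0.0779, limma). No other member was called under any of these. Sema3d and Nrp2 reached the minimum only through the group in which they are high, so their calls are a description. Signs turned only in members that did not pass: Nrp1 (log2 fold change 0.0262, but -0.0216 with edgeR, -0.0278 with DESeq2 and -0.414 to 0.466 without single libraries), Plxnb2 (-0.114, but 0.0421 with edgeR, 0.0554 with DESeq2 and -0.567 to 0.303 without single libraries) and Plxna3 (-0.165, and -0.320 to 0.0259 without single libraries). The cause was not tested. Over all genes, 981 to 2117 were called without single libraries (2101 with all), the lowest without parental replicate 2 and 1015 without clone 12. The share of calls that were higher was 46.9% with all libraries, 68.5% without parental replicate 1 and 59.6% without parental replicate 2. Without a filter, Furin, Gipc1, Mical1 and Ssh1 were not called, nor was Mical1 with TMM. Of the pathway list, 8 to 21 rows were called (19 with all libraries), 8 without parental replicate 2 and 12 without clone 12. TMM and library totals moved the median log2 fold change of all genes by -0.02 and 0.01. Low reads limit, among others, Nrp2 in the clones (0, 3 and 8 reads), Sema3g, Plxnb3 and the untested members. No paired analysis was possible because the clones and the parental libraries share no replicate numbers.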
